A study of Homo sapiens with 3 samples.

Results

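Dense clusters of SRA sites are stretches of the NTERA2 genome in which many places bound by the long non-coding RNA SRA follow each other closely. The members were chosen by their measured positions in the list of SRA sites alone. Sites of the same chromosome were joined when at most 10 kb lay between the end of a site and the start of the next, and groups of 5 or more sites were kept. This gave 137 clusters with 875 of the 7899 SRA sites, or 11.1% of them. The other sites stood in groups of 2 to 4 (2922 sites) or alone (4102 sites). Because position chose the members, their number, closeness and share of each chromosome are descriptions and were not tested. What the rule did not use is the place of the p68 sites, which come from a separate experiment. Width entered the rule in part, since gaps were measured between edges and a wider site leaves shorter gaps.

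The samples were SRA ChIRP, p68 ChIP and input chromatin, all from untreated NTERA2, a human embryonal carcinoma cell line that grows as pluripotent stem cells. Input was not analysed here. Each assay was made on 3 biological replicates, which the authors reduced to 1 list of sites by intersection, with peaks of LacZ control probes taken away from the SRA list. The lists hold a chromosome, a start and an end per site and no score, read count or replicate column, so the depth behind a site and the spread between replicates are unknown. NTERA2 is 1 line with a rearranged karyotype, and its copy number was not measured here.

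SRA is transcribed from a gene that also encodes a protein, and was first known as a coactivator of steroid receptors. It does not bind DNA by a known sequence of its own and is thought to reach chromatin through proteins, among them nuclear receptors, CTCF and the DEAD box RNA helicase p68, the product of DDX5. Trithorax complexes, which methylate lysine 4 of histone H3, and Polycomb repressive complex 2, which methylates lysine 27, are also known to bind it. Both histone marks often lie over broad domains at developmental genes of pluripotent cells.

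The chromatin was recovered with a pool of 29 biotinylated DNA oligonucleotides complementary to SRA, which define what a site in these clusters is: chromatin held by an RNA that these probes caught. The first, the middle and the last probe of the pool are shown, 5′ to 3′, with no part set in capitals because the whole probe pairs with the RNA.
SRA_1: ggctgatgtcatcacatacc
SRA_15: tctctgatgcggggactctg
SRA_29: tgaggcagcagtttgtttgg
Each is 20 nt long, with a GC content of 50% (SRA_1), 60% (SRA_15) and 50% (SRA_29). The bases under the clusters are not printed and genes in them are not named, since a genome and an annotation of hg19, the build of the lists, were not used here.

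Most clusters were small. There were 69 with 5 SRA sites, 26 with 6 and 17 with 7, and the remaining 25 had 8 or more. In 14 clusters with at least 10 sites there were 164 SRA sites. The clusters spanned from 13.9 kb (13932 bp) to 88.5 kb (88516 bp), with a median of 30909 bp and quartiles of 24151 and 39036 bp. Together they took up 4.66 Mb, of which SRA sites covered 56.4%. Clusters with more sites were mostly longer, with a median span of 25995 bp for clusters of 5, 36249 bp for clusters of 7 and 67289.5 bp for the pair with 16 sites. The order was not strict, as clusters of 12 (56539 bp) were shorter than those of 11 (59990 bp), and the cluster of 13 was longer than either of 16. On the border of the rule, groups of 4 sites (110 groups, left out) had a median span of 19894 bp, with 54.7% of it covered by SRA sites, against 56.5% for clusters of 5. The share of the span that was covered therefore changed little across this border.

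**Figure D1:**
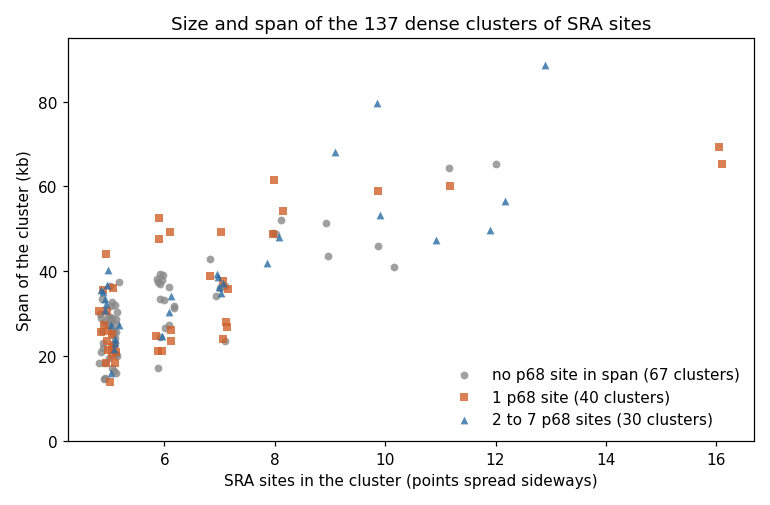
Each point is 1 of the 137 dense clusters, placed by its number of SRA sites (x axis) and its span in kb (y axis), with colour and shape giving the p68 sites that overlap the span. Spans reach 88.5 kb, and the 67 clusters without p68 lie among those with it at sizes from 5 to 12 sites.

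The pair of clusters with most members lay on different chromosomes and were alike in build. On chromosome 11, 16 SRA sites lay between 44859836 and 44929065, from 1387 to 3296 bp wide (median 2231.5 bp) and covering 52.7% of the span. On chromosome 16, 16 sites lay between 84536405 and 84601753, from 1231 to 4053 bp wide (median 2230.5 bp) and covering 56.7%. In neither did a single wide site carry the cluster. The next largest, of 13 sites on chromosome 1 from 205177144 to 205265659, had the longest span of all (88516 bp) and wider sites, with a median of 3306 bp and a maximum of 7253 bp.

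The clusters next in size had 10 to 12 members each. Clusters with 12 members were found on chromosome 16 (75086277 to 75151658 and 69090943 to 69147481) and on chromosome 11 (44946586 to 44996188). Clusters with 11 members were found on chromosome 1 (226813204 to 226877441 and 205454164 to 205514153) and chromosome 16 (67420154 to 67467457). The last of these was the most filled of the clusters with 11 or more sites, with 71.9% of its span in SRA sites, a median gap of 650 bp and a site of 9971 bp. Of the 5 clusters of 10 sites the longest, on chromosome 1 from 26046889 to 26126423, had a median width of 4177.5 bp over 79535 bp of span, and that from 54775831 to 54821842 on the same chromosome was covered to 75.4%.

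**Figure D2:**
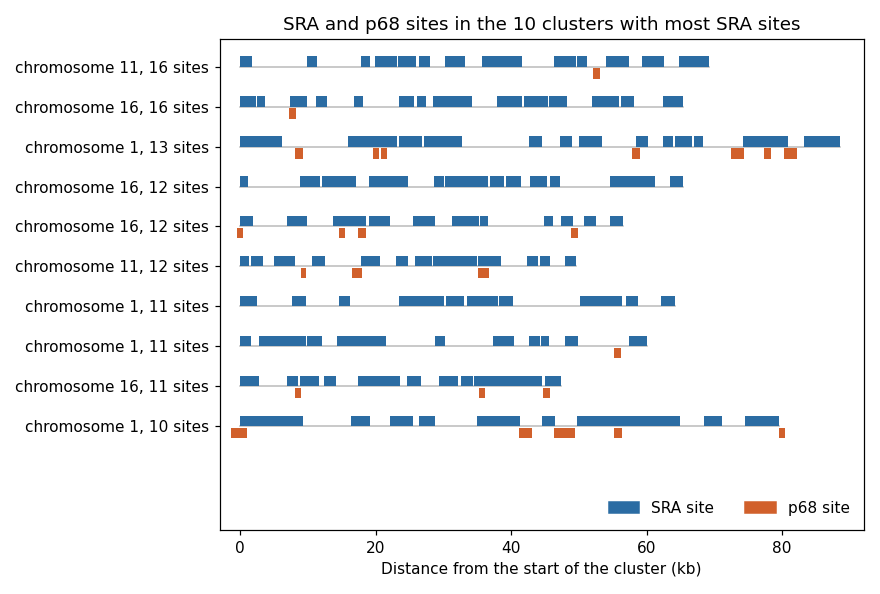
The 10 clusters with most SRA sites (of 5 with 10 sites, the longest) are drawn to scale from their own start (x axis, kb), 1 line per cluster, with SRA sites in blue above the line and p68 sites in orange below it. The SRA sites form runs with short gaps, and p68 sites range from none in the clusters of 12 sites with a span of 65382 bp and of 11 sites with a span of 64238 bp to 7 in the cluster of 13 sites.

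Sites in the clusters followed each other at short and at long gaps. Among 738 gaps between neighbouring members, the median was 1777.5 bp and the quartiles were 315 and 4523.5 bp. The shortest, 3 bp, was in a cluster of 5 sites on chromosome 9 (134551437 to 134580668), and the longest allowed by the rule that occurred was 9882 bp. As many as 231 gaps (31.3%) were no longer than 500 bp, 62 were between 500 bp and 1 kb, and 165 (22.4%) were longer than 5 kb. In groups of 2 to 4 sites, 450 of 1708 gaps (26.3%) were no longer than 500 bp and 29.8% were longer than 5 kb. From midpoint to midpoint the members were a median of 5068 bp apart, with quartiles of 3211.5 and 7777.25 bp.

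**Figure D3:**
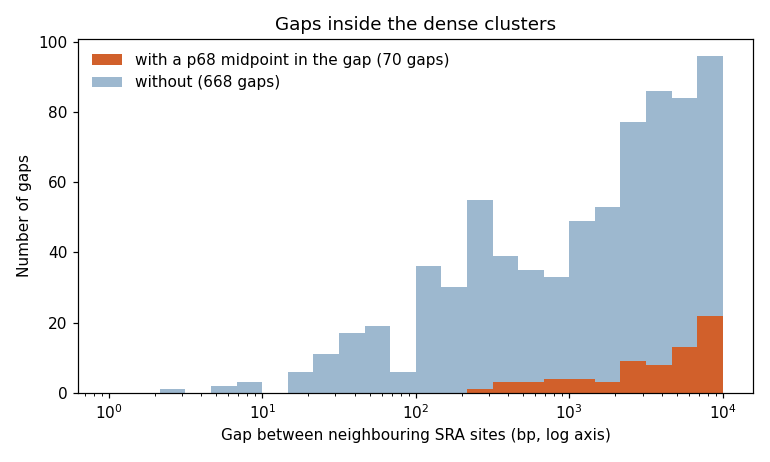
The histogram shows the 738 gaps between neighbouring SRA sites of a cluster by length (x axis, bp, log scale) and number (y axis), split by whether the midpoint of a p68 site lay in the gap. Of the gaps, 231 are no longer than 500 bp, and the 70 that hold a p68 midpoint are mostly long.

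Many members were thus separated by less than the width of a typical site. When sites up to 500 bp apart were first joined to 1 site, 61 clusters of 5 or more were left, with 375 joined sites, and joining up to 1 kb left 49 clusters with 293. The 3 most filled clusters show such runs. On chromosome 1 from 56897119 to 56924708, sites of 9383, 4033, 4584, 3278 and 4711 bp followed each other with gaps of 461, 778, 304 and 58 bp, so that 94.2% of the cluster was SRA sites. From 208392420 to 208413547 on the same chromosome, 6 sites were separated by gaps of 35, 23, 1200, 180 and 40 bp and covered 93.0%. From 25887317 to 25908517, 6 sites covered 90.1%. At the other end stood a cluster of 5 on chromosome 3 (55545268 to 55575633), where sites of 1168 to 2169 bp covered 27.9% of 30366 bp and the median gap was 6652 bp.

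The clusters were set apart from other SRA sites by a median of 16262 bp to the nearest one, with quartiles of 12454 and 26377 bp. For 14 clusters the nearest SRA site outside lay between 10 and 11 kb away and so just beyond the reach of the rule, the closest at 10002 bp. Inside the clusters, 19 gaps were longer than 9 kb. The most isolated cluster, 7 sites on chromosome 1 from 27667372 to 27703620, had no other SRA site for 166872 bp.

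Nearly all clusters lay on 3 chromosomes. Chromosome 1 held 75 clusters with 474 members, chromosome 16 held 37 with 243, and chromosome 11 held 13 with 93. These 3 chromosomes carried 92.6% of the members but 51.0% of all SRA sites and 30.3% of the 14131 p68 sites. The share of a chromosome's SRA sites that were in dense clusters was 23.2% on chromosome 16 (95% Wilson interval 20.8 to 25.9%), 19.8% on chromosome 1 (18.3 to 21.5%) and 15.6% on chromosome 11 (12.9 to 18.7%). On the remaining chromosomes together it was 1.68% (65 of 3869 sites). Chromosome length was not used, so these shares are not matched for SRA sites per Mb of chromosome. Chromosome 2, with 621 SRA sites, more than chromosome 11 has, held 1 cluster of 7 sites (175626356 to 175662781), and chromosome 15 with 241 sites held none, where a count of 0 allows a share of up to 1.24% (3 counts of the total). These intervals cover counting error only and take sites as independent, which neighbours are not.

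**Figure D4:**
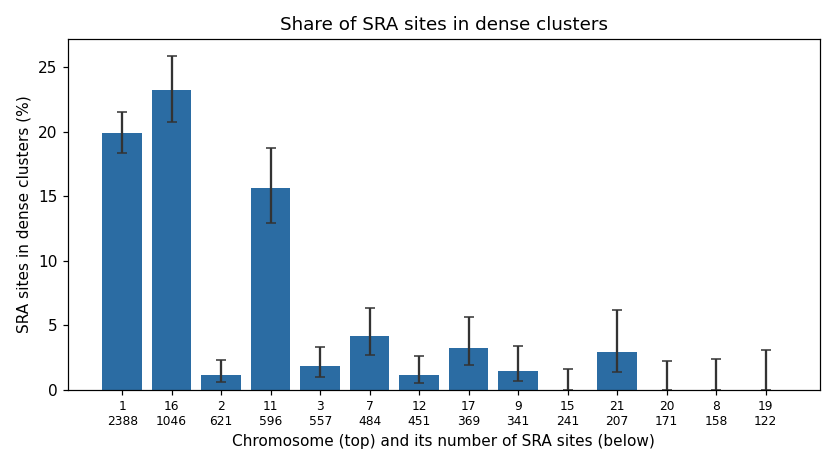
Bars give the percent of the SRA sites of a chromosome that lie in dense clusters (y axis). Chromosomes with at least 100 SRA sites are shown, ordered by that number. Error bars are 95% Wilson intervals, which cover counting error only and do not test the differences. Chromosomes 1, 16 and 11 stand at 19.8%, 23.2% and 15.6%, and the others at 4.13% or less.

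The 12 clusters elsewhere lay on 7 chromosomes. Chromosome 7 held 4, each of 5 sites (2646850 to 2674260, 5446830 to 5469795, 37418854 to 37434768 and 47685987 to 47713506), and of these the third was the most filled at 87.2%. Chromosomes 3 and 17 held 2 each, and chromosomes 2, 9, 12 and 21 held 1 each. The members of these 12 clusters had a median width of 2045 bp, and the 2965 other SRA sites on the same 7 chromosomes one of 2056 bp.

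On chromosome 1 no site of either list started between 121483901 and 143991777, an interval that includes the centromere, and clusters stood on both sides of it in like proportion. Before it, 32 clusters held 196 of 986 SRA sites (19.9%), and after it 43 clusters held 278 of 1402 (19.8%).

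The clusters themselves were unevenly spread. Between neighbouring clusters of a chromosome the median distance was 375.8 kb, with a shortest distance of 10409 bp and a longest of 88.7 Mb, and 86 of 127 such distances (67.7%) were at most 1 Mb. Joining clusters up to 1 Mb apart placed 90 of the 137 in 11 stretches of 3 or more. The longest chain, on chromosome 1 from 199995954 to 205664710, had 23 clusters with 142 members in 5.67 Mb, and 47.7% of the 298 SRA sites in that stretch were members. On chromosome 16 from 83825382 to 87143833, 15 clusters held 97 of 222 SRA sites in 3.32 Mb. On chromosome 11 from 43943996 to 46331987, 8 clusters held 63 of 128 sites.

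At the finer distance of 100 kb, 6 stretches of 3 or more clusters remained. The one with most SRA sites was on chromosome 11 from 44794862 to 45101196, where 4 clusters of 6, 16, 12 and 6 sites followed each other and 40 of the 43 SRA sites of 0.306 Mb were members. Within it, sites of the first cluster were wide (3905 bp or more, median 4748 bp), and those of the clusters with 16 and 12 sites had medians of 2231.5 and 1825.5 bp. Neighbouring clusters of a stretch could thus differ in the width of their sites. On chromosome 1 from 226711735 to 226877441, 3 clusters of 5, 9 and 11 sites took in all 25 SRA sites of the stretch, and no p68 site was listed in it. On chromosome 1 from 201250285 to 201692033, 6 clusters held 34 of 39 sites.

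Members of the clusters were somewhat wider than other SRA sites when all chromosomes were pooled, with a median of 2503 bp (quartiles 1802.5 and 3650 bp) against 2201 bp (1615 and 3223 bp), a ratio of 1.14. The rule favours wide sites, because it joins them by their edges, so this value is a description. With at most 10 kb between midpoints in place of edges, which left 568 members in 90 clusters, the ratio was 1.10. The difference was not seen on every chromosome. On chromosome 1 the members were narrower than the other sites, with medians of 2732.5 and 2989.5 bp (ratio 0.914), while on chromosome 16 they were 2236 and 2072 bp (ratio 1.08) and on chromosome 11 they were 2658 and 2056 bp (ratio 1.29). Weighting the other sites by chromosome as the members are spread, the ratio of geometric mean widths fell from 1.12 to 1.01. The ratio thus depended on how the chromosomes were weighted, and the reason for the pooled difference was not tested. Leaving out chromosome 1 altogether, the ratio of medians over the other chromosomes was again 1.14. With 1 list per assay no test over replicates could be made, and the interquartile ranges overlap in each of these comparisons.

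Sites of very different width stood in the same cluster. The widest site of a cluster was a median of 3.24 times as wide as its narrowest, with a range of 1.40 to 10.7 times. The outermost members had a median width of 2557.5 bp (quartiles 1887.75 and 3840.5 bp, 274 sites), and the inner ones had 2472 bp (1767 and 3611 bp, 601 sites). The narrowest member was 981 bp and the widest 14015 bp. The latter, from 204301624 to 204315638 on chromosome 1, belonged to a cluster of 6 sites (204294742 to 204333777), with the other 5 much narrower, as the median of the 6 was 2533.5 bp. The next widest, of 12734 bp, began a cluster of 8 on chromosome 1 (48144294 to 48193043), in which the median was 2043 bp and no p68 site was listed.

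The helicase p68 was listed close to a minority of the members. Of the 875 members, 130 (14.9%, 95% Wilson interval 12.7 to 17.4%) had a p68 site with at most 500 bp between the edges, where the share of all SRA sites was 11.6%. It was 12.9% (11.7 to 14.2%) in groups of 2 to 4 and 9.995% (9.11 to 10.95%) for sites that stood alone. With an overlap of at least 1 bp, 103 members (11.8%) qualified, against 8.96% of all SRA sites. A p68 site within 2 kb was listed for 173 members (19.8%, with 16.2% of all SRA sites), and midpoints at most 500 bp apart for 14 members (1.60%, with 0.709% of all SRA sites). Among the clusters the share did not rise further with size. It was 14.5% in clusters of 5, 15.8% in those of 6 to 9 and 13.4% in those of 10 or more, with intervals that overlap widely (11.2 to 18.6%, 12.5 to 19.9% and 9.03 to 19.5%). Groups of 4, just outside the rule, stood at 14.8% (11.8 to 18.4%).

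The difference between members and other SRA sites was uneven between chromosomes, with the share higher for members on 4 of the 10 chromosomes that hold clusters. On chromosome 1, p68 was near 17.1% of members (14.0 to 20.7%) and 15.6% of other SRA sites (14.0 to 17.3%), and on chromosome 16 near 10.3% (7.07 to 14.7%) and 9.59% (7.74 to 11.8%). On chromosome 11 the shares were further apart, at 19.4% (12.6 to 28.5%, 18 of 93) and 12.3% (9.74 to 15.5%). Outside these 3 chromosomes they were 9.23% (6 of 65, 4.30 to 18.7%) and 9.20% (8.32 to 10.2%). The intervals overlapped in each of these cases. On chromosome 12, 3 of the 5 members, all neighbours in 1 cluster, had p68 near (23.1 to 88.2%), against 11.9% of other sites (9.20 to 15.2%). None of the 5 to 12 members on each of chromosomes 2, 3, 9 and 17 had p68 near (upper limits 24.2 to 43.4%). The intervals for p68 take sites as independent, which the neighbouring sites of a cluster are not. With other SRA sites weighted by chromosome as the members are spread, 13.2% of them had p68 near, in place of 11.2%, which brought the ratio from 1.33 to 1.13. On chromosome 1 the members before the empty interval had p68 near in 21.4% (16.3 to 27.7%) and those after it in 14.0% (10.4 to 18.6%). The other SRA sites also stood higher before it, at 17.5% of 790 sites, than after it, at 14.2% of 1124 sites.

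Counted by cluster, 70 of the 137 (51.1%, 42.8 to 59.3%) had at least 1 p68 site overlapping their span. Groups of SRA sites of any size, 4102 of 5453 of them single sites, had 12.5%. The share was 25.5% in groups of 2 to 4 and 39.1% in groups of 4. Their median spans were 10360.5 and 19894 bp, against 30909 bp for the clusters. Span was not matched between these groups, and its part in the share was not tested. Among the clusters, the share with p68 was 48.7% for spans up to 25 kb, 43.9% from 25 to 40 kb and 68.8% beyond 40 kb. The number of p68 midpoints per Mb of span was 32.3 (95% exact Poisson interval 21.1 to 47.3), 28.8 (22.0 to 36.9) and 26.5 (19.4 to 35.3) in the same order, so that density did not rise with length. In all, 141 p68 sites overlapped the clusters, which is 0.998% of the p68 list. Their median width, 1125 bp, was near the 1186 bp of the others.

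The number of p68 sites per cluster varied. Of the 137, 67 had none, 40 had 1, 11 had 2, 9 had 3, and 10 had 4 to 7 and held 52 of the 141 p68 sites. In 18 clusters at least 3 members had p68 within 500 bp, and in 75 clusters no member had p68 near. Clusters with and without p68 had members of like width, with medians of 2557 bp (quartiles 1798.5 and 3711 bp) and 2478 bp (1833.75 and 3572.75 bp).

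A pair of clusters held 7 p68 sites each. In the isolated cluster on chromosome 1 from 27667372 to 27703620, 6 of 7 SRA sites had p68 within 500 bp, and the sites were narrow, from 1311 to 2499 bp. Only 1 of the 7 p68 sites, from 27674475 to 27675715, lay wholly inside an SRA site, and another, from 27692318 to 27693596, reached over the ends of 2 neighbouring SRA sites that stood 132 bp apart. In the cluster of 13 on chromosome 1 from 205177144 to 205265659, 3 of 13 SRA sites had p68 near although 7 p68 sites were listed. Of these p68 sites, 2 (205196681 to 205197704 and 205197917 to 205198839) lay in a single SRA site, 3 others overlapped the SRA site that ends at 205258062, and that from 205185239 to 205186359 was near no SRA site. A cluster of 9 on chromosome 1 (45248789 to 45316835) held 6 p68 sites, and 6 of its 9 SRA sites had p68 near. The p68 site near its first SRA site (45248789 to 45252253) lay outside the span. The p68 site from 45301796 to 45305413 was near no SRA site of the cluster.

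Clusters with many SRA sites differed widely in p68. The 14 clusters of 10 or more sites held 2 p68 sites each on average and 29.6 p68 midpoints per Mb, near the 30.5 of clusters of 5 and the 26.3 of clusters of 6 to 9. The clusters of 16 had 1 p68 site each, with 0 members (chromosome 11) and 1 member (chromosome 16) within 500 bp of it. None was listed in the cluster of 12 on chromosome 16 from 75086277 to 75151658 or in that of 11 on chromosome 1 from 226813204 to 226877441. The chain of 15 clusters on chromosome 16 had p68 near 5 of 97 members (5.15%, 2.22 to 11.5%), and a chain of 8 clusters on chromosome 1 from 24608881 to 27703620 near 20 of 50 (interval 27.6 to 53.8%). The former stretch had 12.96 p68 sites per Mb and the latter 70.4, while SRA sites stood at 66.9 and 34.6 per Mb. SRA crowding and p68 crowding were thus not ordered alike in these stretches, which were picked out after their values were seen.

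The same joining rule applied to the p68 list gave 163 dense groups with 1221 p68 sites. Of these, 4 overlapped a dense SRA cluster (2.45% of the p68 groups, and 2.92% of the SRA clusters). They lay on chromosome 1 from 33153838 to 33255199 (17 p68 sites) and from 45235791 to 45259168 (5), on chromosome 7 from 5443930 to 5472054 (5) and on chromosome 12 from 8378760 to 8402878 (7). The SRA cluster within the first, from 33205800 to 33241407, had 5 SRA sites, 4 of them with p68 near. Of the 141 p68 sites that overlapped the SRA clusters, 16 belonged to dense p68 groups, where 1221 of all 14131 p68 sites did. How many smaller groups of SRA sites overlapped a dense p68 group was not counted, so the 4 overlaps have no background share beside them.

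Within the clusters, p68 midpoints were denser in the gaps between SRA sites than on them. The midpoints of 54 p68 sites fell inside members, which is 20.5 per Mb (95% exact Poisson interval 15.4 to 26.8), and those of 79 fell in gaps, which is 38.9 per Mb (30.8 to 48.4). These intervals do not overlap. Split by distance, the gaps had 52.4 per Mb (34.8 to 75.8) up to 500 bp from a member and 34.0 (25.3 to 44.7) farther away. These overlap each other, and the latter overlaps the interval inside members. The first 500 bp beyond the ends of the clusters had 43.8 per Mb (16.1 to 95.3, from 6 midpoints). Within single chromosomes the intervals inside members and in gaps overlap, although the order was the same. On chromosome 1 the density was 24.5 (17.4 to 33.7) inside members and 42.2 (31.1 to 55.9) in gaps, on chromosome 16 it was 13.8 (6.33 to 26.3) and 19.3 (9.25 to 35.5), and on chromosome 11 it was 11.1 (2.30 to 32.5) and 58.7 (31.3 to 100.4). From 500 bp to 10 kb beyond the ends of the clusters, where the rule leaves no SRA site, there were 29.7 per Mb (23.4 to 37.3), and from 10 to 50 kb, leaving out SRA sites, 30.1 per Mb (26.5 to 34.2). Density over the whole spans, 28.5 per Mb, was thus close to that of the surroundings. The members were covered by p68 sites over 2.77% of their bases and the gaps over 4.79%. A lower density on SRA sites than beside them was not particular to the clusters. Groups of 2 to 4 had 12.2 per Mb inside SRA sites and 37.2 in gaps. Single sites had 7.35 inside and 45.3 (39.1 to 52.3) in the first 500 bp outside.

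**Figure D5:**
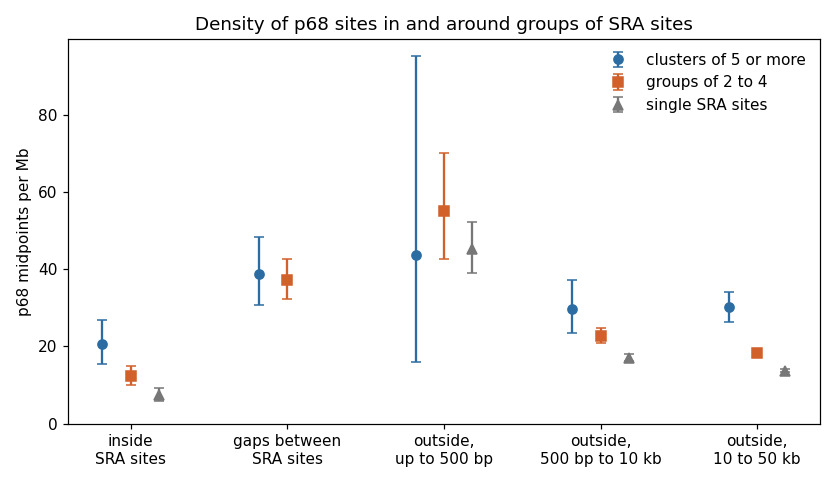
Points give p68 midpoints per Mb (y axis) inside SRA sites, in the gaps between them and at distances outside, for clusters of 5 or more, groups of 2 to 4 and single SRA sites, with 95% exact Poisson intervals. For the clusters the values are 20.5 inside, 38.9 in gaps and 30.1 at 10 to 50 kb, and at 10 to 50 kb the groups of 2 to 4 and the single sites are lower, at 18.4 and 13.7.

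Pooled over all chromosomes, the surroundings of the clusters were richer in p68 than those of other SRA sites. From 10 to 50 kb away, p68 midpoints stood at 30.1 per Mb around clusters, 18.4 (17.4 to 19.4) around groups of 2 to 4 and 13.7 (13.3 to 14.2) around single sites, and inside the SRA sites they stood at 20.5, 12.2 (9.96 to 14.9) and 7.35 (5.81 to 9.17). In the gaps, clusters and groups of 2 to 4 were alike at 38.9 and 37.2 (32.3 to 42.6). Around the clusters of chromosome 16 the density at 10 to 50 kb was 14.3 per Mb (9.85 to 20.1), against 39.3 (33.5 to 45.9) around those of chromosome 1, and 160 of the 242 p68 midpoints counted there around all clusters were on chromosome 1. Inside members the order was the same, at 13.8 (6.33 to 26.3) and 24.5 (17.4 to 33.7). Chromosome 1 held 474 of the 875 members and 1914 of the 7024 other SRA sites. The surroundings of other SRA sites were not split by chromosome, so the pooled comparison is not matched for it.

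Long gaps held most of the p68 midpoints. A p68 midpoint lay in 34 of 165 gaps longer than 5 kb (20.6%, 15.1 to 27.4%) and in 6 of 231 gaps of at most 500 bp (2.60%, 1.20 to 5.55%). Gaps with a p68 midpoint had a median length of 4517 bp, and those without it 1512.5 bp. Per Mb of gap, however, the shortest gaps stood highest, at 133 midpoints (48.9 to 290.2, from 6 midpoints in 45.0 kb), compared with 34.6 (24.8 to 46.9) in gaps over 5 kb. Of the 141 p68 sites, 96 overlapped a member, of which 28 lay wholly inside members and 21 overlapped 2 or more. The other 45 touched no member. SRA sites covered 56.4% of the spans, and the overlap to be had from that cover alone was not worked out. These counts were also not made for smaller groups of SRA sites.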

How the data were processed

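Per the labels, chromatin of NTERA2 was pulled down with SRA probes or a p68 antibody. The deposited files hold site positions in bp on hg19 with no score. The authors filtered aligned single-end reads with SAMtools, called peaks with MACS (at a looser p-value for SRA than for p68), intersected the replicates with ChIPpeakAnno and subtracted LacZ peaks from the SRA list with bedtools. CASAVA 1.8.2 is named in the submitters' processing notes, and the aligner is not given in the sources used here. A site missing from 1 replicate is absent from the lists, and whether the subtraction split sites was not tested.

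Positions were used as deposited and are given 1-based. Clusters, members and gaps were defined by the 10 kb rule. A p68 site was near at a gap of at most 500 bp. Shares have 95% Wilson intervals and densities exact Poisson intervals, which cover counting error only and take sites as independent, which neighbours are not. No resampling was made, and with 1 list per assay there was no test over replicates. Clusters printed singly are the 10 with most sites (ties by span), the 3 longest, most filled and richest in p68, and the largest of the chromosomes with most clusters. Others, and the stretches, were chosen after their values were seen. The members and lists were chosen with earlier results of these data known. Grouping and sharing were tested on simulated data and checked against bedtools. The gene and promoter tables at hand are of another build and were not used. Calculations used Python 3.11.15, numpy 2.4.6, pandas 2.3.3, scipy 1.17.1 and matplotlib 3.10.9.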

Additional observations from a re-analysis of the deposited data

How the results depend on the processing

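Joining sites up to 500 bp or 1 kb apart, weighting by chromosome and the width ratio with midpoints were chosen after seeing the data, the other alternatives before. No paired analysis was possible because each assay has 1 pooled list, and genes could not be counted without hg19. The 875 members in 137 clusters became 384 in 64 with gaps up to 5 kb, 1783 in 231 with gaps up to 20 kb, 1315 in 247 from 4 sites up, 255 in 25 from 8 sites up, 401 in 62 without chromosome 1, 568 in 90 with 10 kb between midpoints, and 375 in 61 or 293 in 49 with sites up to 500 bp or 1 kb apart joined first. The covered share of the span, 56.4%, was 71.8%, 37.8%, 55.8%, 55.2%, 54.7%, 54.9% and 54.4% for 5 kb, 20 kb, 4 sites, 8 sites, no chromosome 1, and joining at 500 bp and at 1 kb.

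The share of members with p68, 14.9%, was 11.8% for overlap, 19.8% within 2 kb, 1.60% for midpoints at most 500 bp apart (0.709% of all SRA sites) and 12.2% without chromosome 1. It was 14.3% to 16.6% without any other chromosome. The share of clusters with p68, 51.1%, was 69.3% with 20 kb, 64.0% (64) from 8 sites up and 63.5% with spans extended by 10 kb, and lower, at 43.5% without chromosome 1, 45.7% from 4 sites up and 48.4% with 5 kb. Inside members, p68 midpoints stood at 14.8 per Mb without chromosome 1. The width ratio, 1.14, was 1.10 with midpoints, 1.30 and 1.34 with sites joined at 500 bp and at 1 kb, 1.01 with geometric means and other sites weighted by chromosome, and 1.12 to 1.17 without any chromosome other than 1. Joining sites first makes wider sites by itself, so the 1.30 and 1.34 are not like the other width ratios. Chromosome 1 held 54.2% of members, or 50.3% with 20 kb. Under each alternative that gave both, p68 midpoints were denser in gaps than inside members. Against 38.9 and 20.5 per Mb, they stood at 37.5 and 21.7 with 5 kb, 34.4 and 17.3 with 20 kb, and 39.3 and 18.1 from 4 sites up. They stood at 33.2 and 23.1 from 8 sites up, and 34.6 and 14.8 without chromosome 1. The values were closest with sites joined first, at 32.6 and 22.7 for 500 bp and 31.7 and 23.4 for 1 kb.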
